A study of Mus musculus with 14 samples.

Results

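The genes followed here belong to the Notch pathway and to secretory cell fate, and were followed across APEX-seq libraries of mouse small intestinal organoids (sIOs). They are the receptors Notch1 and Notch2, the ligands Dll1, Dll4 and Jag1, the target Hes1 and the fate factors Atoh1 and Neurog3. The 8 genes were chosen by name and matched to the Ensembl IDs of the count table, and all 8 were found among its 55401 genes. APEX-seq uses the peroxidase APEX2, fused to a bait protein, to biotinylate RNA close to the bait in living cells, and the captured RNA is then sequenced. The sIOs were grown from the small intestine of adult male and female C57BL/6J mice and stably expressed a lentiviral bait construct with a fluorescent reporter, so that every library came from transduced organoids. Of the libraries, 4 were made with APEX2-DPP4, a bait of the apical membrane, 4 with APEX2-ACTB and 4 with APEX2-GFP, both cytoplasmic baits, and 1 each was named MITO-1 and MITO-1c, with a mitochondrial bait. The study describes mitochondrial samples with and without H2O2, the substrate that starts APEX2 labelling, but the labels do not say which of MITO-1 and MITO-1c received it. Nothing states that libraries of 1 bait came from separate cultures, and p-values therefore measure the spread between these libraries, which may be technical.

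Notch receptors are activated by ligands on a neighbouring cell, after which their intracellular part is cut free and acts in the nucleus with the DNA-binding protein RBPJ. In the intestinal crypt, Notch signaling switches on Hes1, a repressor, and Hes1 holds down Atoh1, the factor that commits a progenitor to the secretory lineages. Cells that escape Notch signaling express Atoh1 and the ligands Dll1 and Dll4, and a subset that goes on to express Neurog3 becomes enteroendocrine.

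Atoh1 and Neurog3 encode basic helix-loop-helix proteins that bind E-boxes, whereas repressors of the Hes family bind N-boxes. The start regions of Atoh1, Neurog3 and Dll1 are shown because Atoh1 and Neurog3 are the fate factors and Dll1 was the gene that varied with Atoh1 across libraries. Each window runs from 250 bases before to 50 bases after the RefSeq start (build GRCm38.p6), 5′ to 3′ on the gene's strand. Capitals mark E-boxes (CANNTG) and N-boxes (CACNAG), both searched on either strand.
Atoh1, chr6:64728875-64729174, plus strand: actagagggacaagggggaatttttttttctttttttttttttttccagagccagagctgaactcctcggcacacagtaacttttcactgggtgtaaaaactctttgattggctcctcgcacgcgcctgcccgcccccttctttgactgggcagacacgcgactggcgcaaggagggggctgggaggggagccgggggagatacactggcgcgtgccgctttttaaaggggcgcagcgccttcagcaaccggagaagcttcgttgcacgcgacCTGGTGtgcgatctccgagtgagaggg
Neurog3, chr10:62132840-62133139, plus strand: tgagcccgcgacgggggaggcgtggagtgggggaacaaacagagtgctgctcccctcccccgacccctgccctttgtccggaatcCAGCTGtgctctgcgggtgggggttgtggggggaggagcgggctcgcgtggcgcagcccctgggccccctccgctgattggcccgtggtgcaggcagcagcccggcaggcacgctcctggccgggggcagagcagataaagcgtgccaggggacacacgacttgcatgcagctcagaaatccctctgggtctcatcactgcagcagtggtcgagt
Dll1, chr17:15376883-15377182, minus strand: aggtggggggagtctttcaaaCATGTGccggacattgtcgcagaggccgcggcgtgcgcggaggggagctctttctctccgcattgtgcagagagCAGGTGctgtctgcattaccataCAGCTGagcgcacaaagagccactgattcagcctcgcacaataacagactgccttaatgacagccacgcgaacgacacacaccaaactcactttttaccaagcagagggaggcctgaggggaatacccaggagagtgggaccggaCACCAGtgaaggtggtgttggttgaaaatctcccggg
Dll1 had 2 RefSeq windows, and the window nearer to its annotated gene start is shown. The Dll1 window shown held 3 E-boxes and 1 N-box, the Atoh1 window 1 N-box and 0 E-boxes, and the Neurog3 window 1 E-box and 0 N-boxes. No E-box overlapped an N-box. Among 32851 RefSeq windows of the same length, 72.3% held an E-box and 42.5% an N-box, and the median was 1 E-box per window. The core of the RBPJ site, TGGGAA, was found in 0 of the 7 windows matched and in 25.6% of all windows. These matches describe letters only. Of the 8 genes, 7 had a window in the RefSeq table, and Hes1 is named only.

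Total counts per library lay between 9442594 and 36492010. The shallowest, both numbered 4, were 1 of APEX2-DPP4 and 1 of APEX2-GFP, at under 50% of the median of the 12 bait libraries. Epithelial markers such as Epcam and Vil1 summed to between 3500 and 17900 in normalized CPM (library-size-scaled counts, adjusted by the trimmed mean of M-values, TMM), while 8 mesenchymal markers summed to at most 7.97, 6 endothelial markers to at most 10.4 and 7 immune markers to at most 4.59. The 13 enterocyte markers varied far more, between 296 and 105000 in the APEX2-DPP4 libraries, between 157 and 57200 in the APEX2-ACTB libraries and between 265 and 53800 in the APEX2-GFP libraries. In bulk libraries, fewer cells of a type and less RNA per cell cannot be told apart.

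To compare genes with each other, counts were divided by exon length and rescaled to 1 common total in every library (TPM). Over the 12 bait libraries Hes1 had the highest median TPM (64.6), followed by Jag1 (25.7), Dll1 (14.9), Notch2 (8.75), Dll4 (4.94), Notch1 (4.02), Atoh1 (3.76) and Neurog3 (0.138). The order depends on the division, which takes reads to be spread over the whole exon length. That spread was not tested, and the study reverse transcribed on the beads by the msSCRB-seq protocol. Without length scaling, Jag1 had a higher median (71.3 normalized CPM) than Hes1 (46.9). Hes1 stood above Jag1 in 10 of 12 libraries, with a mean difference of 0.98 ± 0.86 on the log2(TPM + 0.1) scale (SD), and Jag1 above Dll1 in 9 of 12 libraries (mean log2 difference 2.00 ± 2.40, SD). In 6 of the 7 neighbouring pairs the SD of the difference was larger than its mean, Hes1 with Jag1 being the exception. The pairs were formed from the order of these same values, so no test is given for them. Within every library the TPM of Hes1 was above that of Atoh1, in 12 of 12, and they came closest in APEX2-GFP library 3, where Hes1 was 1.07 times Atoh1.

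**Figure D1:**
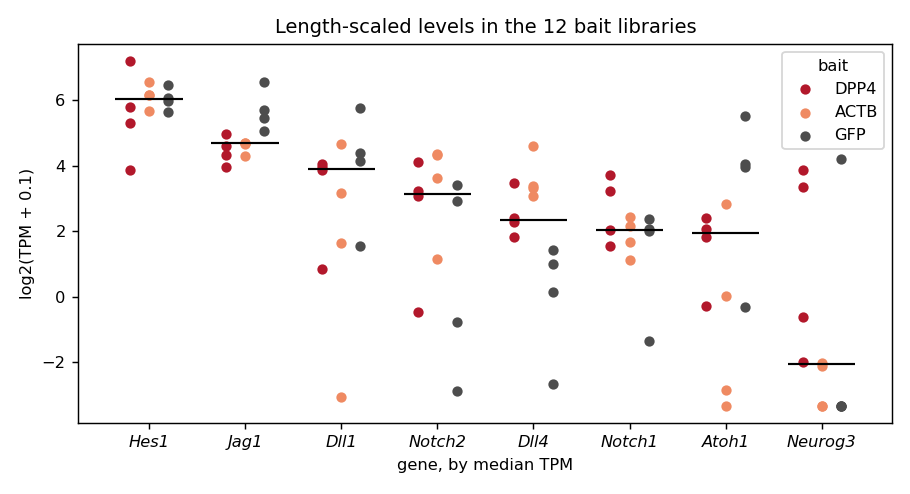
Length-scaled level of each gene, as log2(TPM + 0.1) on the vertical axis, in the 12 bait libraries, ordered by median TPM. Each point is 1 library coloured by bait, and the lines are medians over the 12 libraries. Hes1 and Jag1 lie in a narrow band, with medians of 64.6 and 25.7 TPM, whereas Dll1, Atoh1 and Neurog3 spread over most of the axis. Notch2 (0.0357 to 20.2 TPM) and Dll4 (0.057 to 24 TPM) spread nearly as far as Neurog3 (0 to 18.2 TPM).

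The genes also differed in how much they varied between libraries. The SD of log2 CPM over the 12 bait libraries was 0.72 for Jag1 and 0.72 for Hes1, below the median of 0.92 over 9727 genes with a mean of at least 10 normalized CPM. It was 1.35 for Notch1 and 2.02 for Dll4. It reached 2.48 for Notch2 and 2.72 for Dll1, above the 90th percentile of 2.29 of those genes, and 2.92 for Atoh1 and 3.02 for Neurog3, whose means were under 10 CPM. The most stable genes were thus the target Hes1 and the ligand Jag1. The fate factors had the largest SD, but at low counts, with 0 counts of Neurog3 in 5 and of Atoh1 in 1 of the 12 bait libraries. At such levels the SD also depends on the count added before the log.

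Among the receptors, Notch1 (chr2:26457903-26516663, minus strand, GRCm38) had 34.3, 49.9, 91.8 and 18.3 normalized CPM in APEX2-DPP4, 12.9, 14.5, 28 and 20.8 in APEX2-ACTB and 18.0, 1.83, 32.4 and 24.4 in APEX2-GFP. Of the 4 APEX2-DPP4 libraries, 3 lay above every library of the other baits, and library 4 did not. Its mean was 48.6 ± 31.6 in APEX2-DPP4, 19.0 ± 6.84 in APEX2-ACTB and 19.1 ± 13.0 in APEX2-GFP (SD, n = 4 each). Of the Notch1 exon bases, 9.76% are shared with genes on the other strand, and since the library kit does not mark strand, reads there cannot be assigned to a strand.

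Notch2 (chr3:98013527-98150361, plus strand), the second receptor of the crypt, had 4.06, 34.3, 91.2 and 45.4 normalized CPM in APEX2-DPP4, 63.6, 11.2, 49.5 and 72.3 in APEX2-ACTB and 24.9, 2.29, 0.226 and 37.9 in APEX2-GFP. The baits overlapped, and the lowest values, in APEX2-GFP libraries 3 and 2, rested on 7 and 70 counts. The means were 43.7 ± 36.1 in APEX2-DPP4, 49.2 ± 27.0 in APEX2-ACTB and 16.3 ± 18.2 in APEX2-GFP (SD, n = 4 each). Gm42820, on the same strand, covers 5.02% of the Notch2 exon bases and had 0 counts in the 14 libraries.

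Among the ligands, Dll1 (chr17:15367354-15376872, minus strand), made by early secretory progenitors, had 41.5, 24.7, 30.1 and 3.28 normalized CPM in APEX2-DPP4, 11, 52.6, 4.8 and 0.0280 in APEX2-ACTB and 3.71, 32.5, 134 and 29.2 in APEX2-GFP. APEX2-ACTB library 4 held 1 count and APEX2-GFP library 3 4146 counts, although their total counts were 32961299 and 36492010. All 3 baits overlapped, with means of 24.9 ± 16 in APEX2-DPP4, 17.1 ± 24.1 in APEX2-ACTB and 49.8 ± 57.4 in APEX2-GFP (SD, n = 4 each). An opposite-strand lincRNA gene, A930024N18Rik, covers 20.5% of the Dll1 exon bases and had 0 counts in the 14 libraries.

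Dll4 (chr2:119325784-119335962, plus strand), the second Delta ligand of crypt secretory cells, had 8.04, 7.60, 21.1 and 8.32 normalized CPM in APEX2-DPP4, 9.41, 18.8, 14.8 and 30.7 in APEX2-ACTB and 2.26, 4.34, 0.129 and 1.30 in APEX2-GFP. Every APEX2-GFP library lay below every library of the other baits. The means were 11.3 ± 6.57 in APEX2-DPP4, 18.4 ± 9.01 in APEX2-ACTB and 2.01 ± 1.78 in APEX2-GFP (SD, n = 4 each). APEX2-GFP libraries 3 and 4 held 4 and 15 Dll4 counts. An opposite-strand gene, Gm14207, covers 5.56% of the Dll4 exon bases. It had 1805 counts in the 14 libraries, against 3943 for Dll4.

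Jag1 (chr2:137081456-137116644, minus strand), a ligand of the Jagged class, had 54.7, 44.2, 70.0 and 82.8 normalized CPM in APEX2-DPP4, 44.6, 72.6, 42.8 and 49.8 in APEX2-ACTB and 94.5, 238, 114 and 85.5 in APEX2-GFP. Here the APEX2-GFP libraries lay above every APEX2-DPP4 and APEX2-ACTB library, although APEX2-GFP library 4 (85.5) and APEX2-DPP4 library 4 (82.8) nearly met. The means were 62.9 ± 16.9 in APEX2-DPP4, 52.4 ± 13.7 in APEX2-ACTB and 133 ± 70.8 in APEX2-GFP (SD, n = 4 each). No annotated exon of another gene overlaps Jag1.

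Hes1 (chr16:30064384-30067796, plus strand), the repressor that Notch switches on, had 17.7, 42.9, 147 and 36.6 normalized CPM in APEX2-DPP4, 43.4, 50.4, 53.8 and 62.6 in APEX2-ACTB and 42.6, 78.5, 58.7 and 42.6 in APEX2-GFP. The highest and the lowest library were both of APEX2-DPP4, and the means were close, at 61.0 ± 58.3, 52.6 ± 7.98 and 55.6 ± 17.0 in APEX2-DPP4, APEX2-ACTB and APEX2-GFP (SD, n = 4 each). APEX2-DPP4 library 3, with the highest Hes1, also had the highest normalized CPM of Notch1 and Notch2 of the 12 bait libraries. Its TMM factor of 0.769 was the lowest of them. Before TMM scaling, Notch2 was at 70.1 CPM in that library, below 79.3 and 78.5 in APEX2-ACTB libraries 1 and 4.

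Atoh1 (chr6:64729125-64731245, plus strand), the secretory commitment factor, had 5.27, 2.76, 5.49 and 0.703 normalized CPM in APEX2-DPP4, 0, 7.32, 0.724 and 0.0280 in APEX2-ACTB and 0.463, 15.4, 57.2 and 11.1 in APEX2-GFP. Of the APEX2-GFP libraries, 3 lay above every APEX2-DPP4 and APEX2-ACTB library, while APEX2-GFP library 1 was among the lowest. The means were 3.56 ± 2.27 in APEX2-DPP4, 2.02 ± 3.55 in APEX2-ACTB and 21.0 ± 24.9 in APEX2-GFP (SD, n = 4 each). APEX2-ACTB library 1 held 0 Atoh1 counts, which at its depth allows up to 0.0661 normalized CPM (3 counts, counting error only).

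Neurog3 (chr10:62133090-62134763, plus strand), which starts the enteroendocrine program, had 13, 340, 127 and 1 counts in APEX2-DPP4, 3, 0, 3 and 0 in APEX2-ACTB and 0, 411, 0 and 0 in APEX2-GFP. In normalized CPM this was 0.562, 9.19, 8.41 and 0.117 in APEX2-DPP4, at most 0.0905 in APEX2-ACTB and 13.4 in APEX2-GFP library 2. More than 13 counts were thus found in 3 of the 12 bait libraries, 2 of APEX2-DPP4 and 1 of APEX2-GFP. The gene Fam241b overlaps 16.3% of its exon bases on the other strand. Fam241b had 6290 counts in the 14 libraries, against 915 for Neurog3. The part of Fam241b reads in the Neurog3 counts was not tested.

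**Figure D2:**
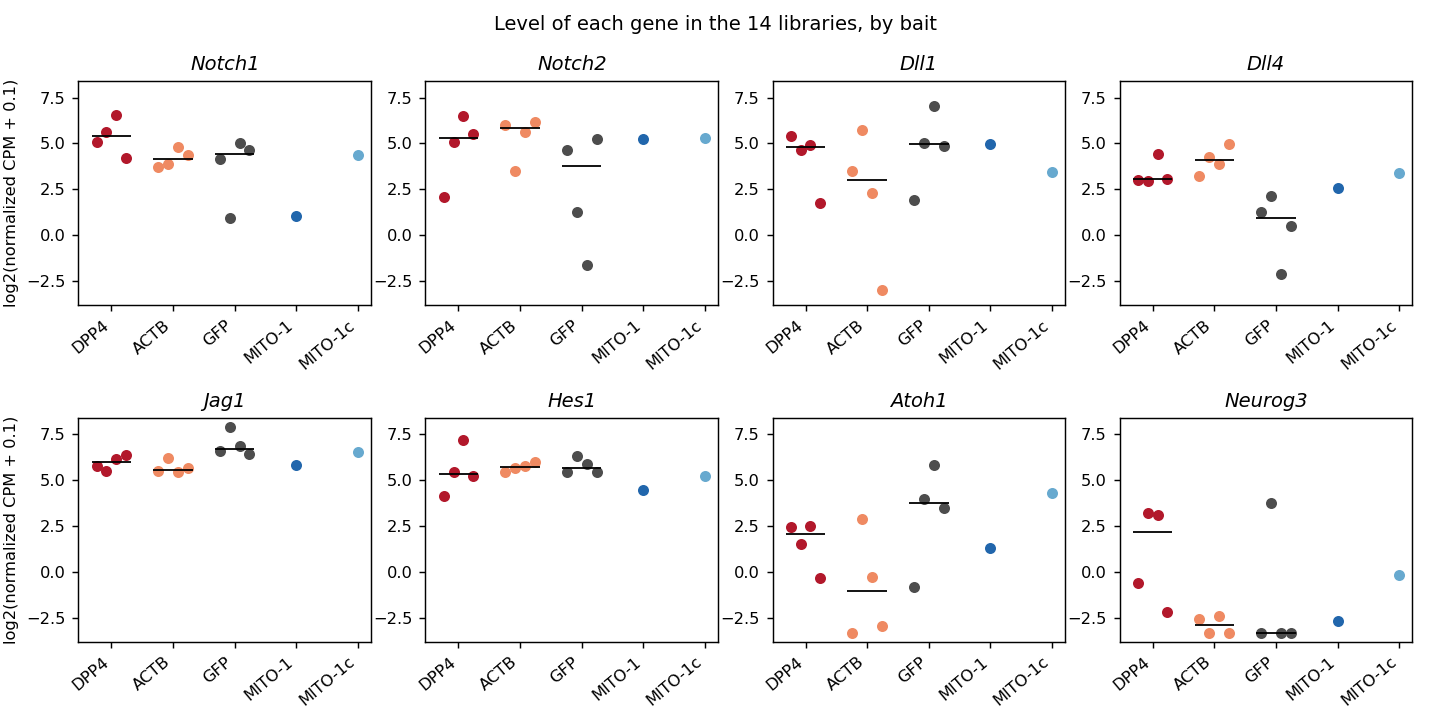
Level of each gene in the 14 libraries, as log2(normalized CPM + 0.1) on the vertical axis, with the bait on the horizontal axis. Each point is 1 library and the lines are medians of 4 libraries. All 4 APEX2-GFP libraries lie below the others for Dll4 and above the APEX2-DPP4 and APEX2-ACTB libraries for Jag1, and Neurog3 is high in 2 APEX2-DPP4 libraries and 1 APEX2-GFP library.

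The first comparison set the apical bait against the cytoplasmic GFP bait. No gene of the 8 passed the calling rule of edgeR's quasi-likelihood test (adjusted p below 0.05 with an absolute log2 fold change above 1), and the test called 0 of 26136 genes (0%), with 1534 genes at an unadjusted p under 0.05 (5.87%). DESeq2 called 48 genes and edgeR's exactTest 0. The log2 fold change of Atoh1 was -2.61 ± 1.13 (SE; edgeR adjusted p = 0.836), and Jag1 had -1.14 ± 0.54 (edgeR adjusted p = 0.836). These were the 2 of 8 genes under an unadjusted p of 0.05, and single libraries moved both: Atoh1 was -1.38 without APEX2-GFP library 3, and Jag1 -0.69 without APEX2-GFP library 2. Beside Atoh1, 3 of 8 Paneth markers (median log2 fold change -0.38) and 1 of 12 enteroendocrine markers (median -1.20) were above 0. The same held for 2 of 7 goblet (median -0.54), 2 of 8 tuft (median -0.86) and 10 of 13 enterocyte markers (median 0.54). Dll4 had 2.42 ± 1.25 (edgeR adjusted p = 0.84) and Notch1 1.29 ± 0.74 (edgeR adjusted p = 0.932; 0.80 without APEX2-DPP4 library 3). The libraries did not overlap for 2 of the 8 genes, Dll4 (higher in APEX2-DPP4) and Jag1 (lower), against 1.95% of all genes tested. The median log2 fold change was 0.21 over the 8 genes and 0.09 over all genes tested.

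The second comparison set the apical bait against the cytoplasmic ACTB bait and used the same 4 APEX2-DPP4 libraries. Neurog3 was the gene that stood out, with 481 counts summed over the APEX2-DPP4 libraries and 6 over the APEX2-ACTB libraries. Its log2 fold change was 6.69 ± 1.96 (SE; edgeR adjusted p = 0.806), a value that depends on the few APEX2-ACTB counts. DESeq2 called it (log2 fold change 6.85, DESeq2 adjusted p = 0.00248), and over the 15 alternatives tried its adjusted p ranged between 0.00248 and 1, with 0.133 the lowest in an edgeR fit. The libraries did not overlap for Neurog3 (higher in APEX2-DPP4), 1 of the 8 genes, against 2.03% of all genes tested. That separation rested on APEX2-DPP4 library 4, where 1 count made 0.117 CPM in a shallow library, above the 3 counts of APEX2-ACTB library 3. Notch1 had a log2 fold change of 1.35 ± 0.59 (edgeR adjusted p = 0.806), and 0.77 without APEX2-DPP4 library 3. The other 6 genes had values between -0.71 and 0.82, with edgeR adjusted p of 1. Of these, Atoh1 (0.82) and Dll1 (0.54) depended on APEX2-ACTB library 2, without which they were 3.83 (edgeR adjusted p = 0.463) and 2.20 (edgeR adjusted p = 0.71). Like Neurog3, 8 of 8 Paneth markers (median log2 fold change 2.57), 10 of 12 enteroendocrine (median 1.51) and 5 of 7 goblet markers (median 1.09) were above 0. Tuft markers, also of a secretory cell, were divided, with 4 of 8 above 0 (median -0.05). Enterocyte markers, which are not secretory, were above 0 in 12 of 13 (median 1.43). None of these markers was called. The Paneth markers summed to between 498 and 1560 normalized CPM in APEX2-DPP4 and between 61.2 and 522 in APEX2-ACTB, and the enteroendocrine markers to between 7.15 and 956 in APEX2-DPP4 and between 62.7 and 481 in APEX2-ACTB. Their part in the values of Neurog3 was not tested. The test called 0 of 27451 genes (0%), with 1693 at an unadjusted p under 0.05 (6.17%), where 2 of the 8 genes fell. DESeq2 called 141 genes and edgeR's exactTest 1. The median log2 fold change was 0.40 over the 8 genes and 0.05 over all genes tested. With APEX2-ACTB library 2 left out the count of calls was 56, with 0 of the 8 genes.

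The third comparison set the cytoplasmic ACTB bait against the GFP bait, and it shares its libraries with the other comparisons. Dll4 had a log2 fold change of 3.22 ± 1.12 (SE; edgeR adjusted p = 0.814) and Jag1 -1.32 ± 0.44 (edgeR adjusted p = 0.814). The libraries did not overlap for these 2 of the 8 genes, Dll4 (higher in APEX2-ACTB) and Jag1 (lower), against 1.77% of all genes tested. Jag1 was -0.87 without APEX2-GFP library 2. Atoh1 had -3.38 ± 1.85 (edgeR adjusted p = 0.82), with -6.39 without APEX2-ACTB library 2 and -2.12 without APEX2-GFP library 3. Neurog3 had -6.24 ± 2.87 (edgeR adjusted p = 0.814), which came from APEX2-GFP library 2 alone, and without that library its value was 3.48. Of the markers, 0 of 8 Paneth (median log2 fold change -2.15) and 1 of 12 enteroendocrine (median -2.88) were above 0, none of them called. The same held for 2 of 7 goblet (median -2.02), 1 of 7 tuft (median -1.19) and 4 of 13 enterocyte markers (median -0.67), again with none called. In APEX2-GFP the Paneth markers summed to between 302 and 1000 normalized CPM and the enteroendocrine markers to between 5.01 and 4610, and their part in the values of Atoh1 and Neurog3 was not tested. The test called 0 of 26470 genes (0%), with 1486 at an unadjusted p under 0.05 (5.61%), where 3 of the 8 genes fell. DESeq2 called 73 genes and edgeR's exactTest 0. With APEX2-ACTB library 2 left out the count of calls was 10, and with APEX2-GFP library 1 left out it was 1, with 0 of the 8 genes in either. The median log2 fold change was -0.69 over the 8 genes and 0.11 over all genes tested.

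**Figure D3:**
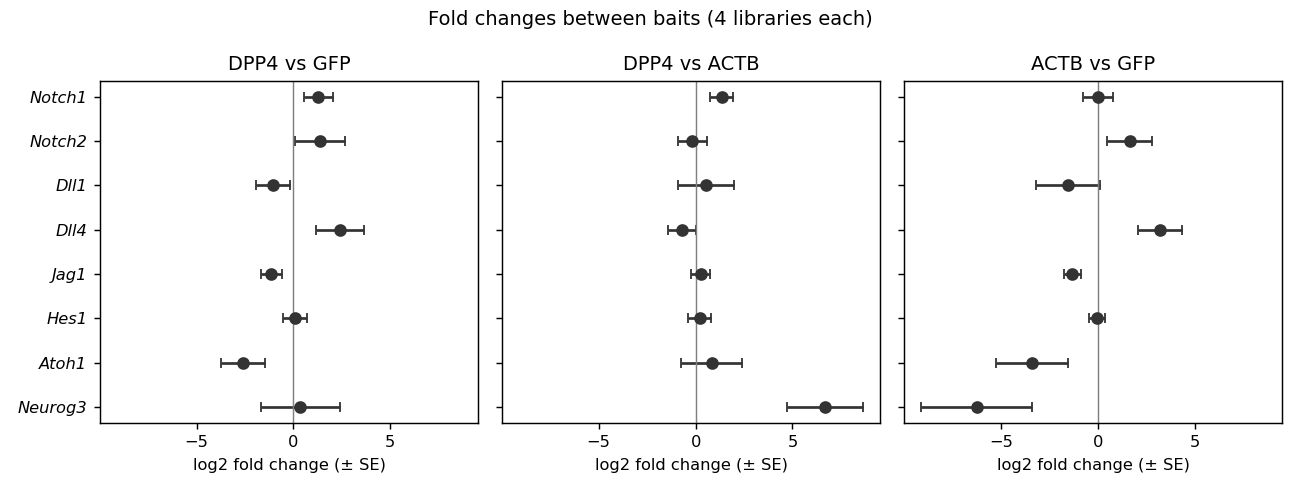
Log2 fold change of each gene (horizontal axis, ± SE) in the 3 comparisons of baits, with 4 libraries of each bait and the gray line at 0. Dll4 lies at 2.42 and 3.22 and Jag1 at -1.14 and -1.32 against APEX2-GFP, and Neurog3 has the widest errors.

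Further genes of the pathway were examined from a list of 48. It holds other receptors and ligands, ligand and receptor processing, nuclear partners, modifiers, other targets and Hes6, a relative of Hes1. In APEX2-DPP4 against APEX2-GFP 46 were tested, 0 were called and 1 had an unadjusted p under 0.05, and their log2 fold changes had a median of -0.01. In APEX2-DPP4 against APEX2-ACTB 47 were tested, 0 were called and 5 had an unadjusted p under 0.05, with a median of 0.02. In APEX2-ACTB against APEX2-GFP 46 were tested, 0 were called and 1 had an unadjusted p under 0.05, with a median of 0.06. These medians lay close to those of all genes tested, 0.09, 0.05 and 0.11. The shares of all genes tested under an unadjusted p of 0.05 were 5.87%, 6.17% and 5.61%.

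Nrarp, a Notch target that feeds back on the pathway, had 24.8, 33.9, 239 and 14.8 normalized CPM in APEX2-DPP4, 3.24, 18.7, 13.8 and 14.3 in APEX2-ACTB and 12.6, 8.0, 17.8 and 40.5 in APEX2-GFP. Its highest value was in APEX2-DPP4 library 3, as for Hes1, Notch1 and, after TMM scaling only, Notch2. The log2 fold change was 1.93 ± 0.81 against APEX2-GFP (edgeR adjusted p = 0.836) and 2.64 ± 0.87 against APEX2-ACTB (edgeR adjusted p = 0.806). Itch, a ubiquitin ligase that acts on Notch, had 136, 109, 203 and 76.0 normalized CPM in APEX2-DPP4, 44.4, 67.1, 67.2 and 65.7 in APEX2-ACTB and 57.5, 73.7, 72.9 and 57.1 in APEX2-GFP. Every APEX2-DPP4 library of Itch lay above every APEX2-ACTB and APEX2-GFP library, by a small margin in library 4, with log2 fold changes of 0.95 ± 0.52 against APEX2-GFP (edgeR adjusted p = 0.899) and 1.10 ± 0.52 against APEX2-ACTB (edgeR adjusted p = 0.806).

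Of the other targets, Hes5 had 5 counts in the 14 libraries, Hey1 6 and Hey2 1, and no fold is given for them. Hes6, listed here as a relative of Hes1 and not read as a Notch target, was counted in every library. It had 46.2 to 134 normalized CPM in the 12 bait libraries. Olfm4, a stem cell gene that depends on Notch, had 0.259, 54.7, 5.69 and 0.234 normalized CPM in APEX2-DPP4, 0.0661, 15.0, 1.27 and 0.0839 in APEX2-ACTB and 15.7, 0, 0.0323 and 96.8 in APEX2-GFP, so that it differed widely within each bait.

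A second list held 24 further factors of secretory fate, of which 23 were tested and 0 called in each comparison. Against APEX2-GFP, 0 had an unadjusted p under 0.05 in APEX2-DPP4 (median log2 fold change -0.49) and 3 in APEX2-ACTB (median -1.12), and 6 did in the comparison of APEX2-DPP4 with APEX2-ACTB (median 0.24). Over all genes tested the shares were 5.87%, 5.61% and 6.17%. In APEX2-DPP4 against APEX2-ACTB the libraries did not overlap for 2 of the 23, both higher in APEX2-DPP4, against 2.03% of all genes tested. Pax4, which acts downstream of Neurog3, had 4, 44, 18 and 0 counts in APEX2-DPP4, 1, 0, 0 and 0 in APEX2-ACTB and 0, 4, 571 and 7 in APEX2-GFP. Its highest count was in APEX2-GFP library 3, where Neurog3 had 0. Foxa1, a pioneer factor of endoderm, had 7.26, 24.2, 14 and 46.2 normalized CPM in APEX2-DPP4 and 124, 17.4, 113 and 154 in APEX2-ACTB (log2 fold change -2.16 ± 0.68, edgeR adjusted p = 0.806), and APEX2-ACTB library 2 fell inside the APEX2-DPP4 range. Sox4, a factor of secretory progenitors, averaged 285 ± 211 in APEX2-ACTB and 62.0 ± 33.1 in APEX2-GFP (SD, n = 4 each; log2 fold change 2.24 ± 0.85, edgeR adjusted p = 0.814). Neurod1, a target of Neurog3, was listed at 0 in all 14 libraries, although the 12 enteroendocrine markers summed to as much as 4610 normalized CPM. In the annotation used here 7.37% of its exon bases are shared with Cerkl on the same strand, and the part of the counting rules in that 0 was not tested.

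Further genes with the smallest p of each list overlapped between baits, with edgeR adjusted p between 0.806 and 1. Of the ligands and receptors, Dll3 averaged 0.168 ± 0.256 normalized CPM in APEX2-DPP4, 0.062 ± 0.0901 in APEX2-ACTB and 0.0154 ± 0.0179 in APEX2-GFP (SD, n = 4 each). Notch4, a receptor best known from endothelium, averaged 2.45 ± 3.63 in APEX2-DPP4, 1.05 ± 1.00 in APEX2-ACTB and 1.04 ± 1.61 in APEX2-GFP. Notch3 averaged 7.73 ± 8.97 in APEX2-ACTB and 4.37 ± 6.34 in APEX2-GFP. It reached 20.9 in APEX2-DPP4 library 4 and 20.6 in APEX2-ACTB library 3. The ligand Jag2, not named by its p, varied widely within each bait. It lay between 3.59 and 173 in APEX2-DPP4, between 2.03 and 116 in APEX2-ACTB and between 0.0653 and 92.2 in APEX2-GFP. Furin, the protease that cleaves the Notch precursor, averaged 120 ± 75.1 in APEX2-ACTB and 67.3 ± 14.5 in APEX2-GFP. The Mastermind coactivators were of modest level, with Maml1 at 22.8 ± 11 in APEX2-DPP4, 23.4 ± 15.2 in APEX2-ACTB and 11.7 ± 3.21 in APEX2-GFP. Maml3 averaged 31.9 ± 17.7 in APEX2-DPP4 and 54.8 ± 44.8 in APEX2-GFP. Maml2 averaged 9.61 ± 10.7 in APEX2-DPP4, 50.3 ± 71.9 in APEX2-ACTB and 15.6 ± 8.82 in APEX2-GFP, with an SD above the mean in APEX2-DPP4 and APEX2-ACTB. Spen, a corepressor of the RBPJ complex, averaged 121 ± 75.0 in APEX2-DPP4 and 85.5 ± 30.6 in APEX2-ACTB. Among the E3 ligases, Neurl1b averaged 31.2 ± 27.0 in APEX2-DPP4 and 13.5 ± 12.3 in APEX2-GFP, Dtx2 16.3 ± 7.09 in APEX2-ACTB and 8.05 ± 6.51 in APEX2-GFP, and Dtx3 13.8 ± 12.6 in APEX2-ACTB and 3.35 ± 3.74 in APEX2-GFP. The fringe glycosyltransferase Mfng averaged 0.644 ± 0.872 in APEX2-DPP4, 0.0165 ± 0.0331 in APEX2-ACTB and 2.36 ± 4.70 in APEX2-GFP, and the target Heyl 0.773 ± 1.05 in APEX2-DPP4 and 0.224 ± 0.259 in APEX2-GFP. Of the fate factors, Spdef, which acts in goblet and Paneth cells, averaged 18.8 ± 18.4 in APEX2-DPP4 and 4.63 ± 4.72 in APEX2-GFP, and Pax6, a factor of enteroendocrine cells, 0.747 ± 0.535 in APEX2-DPP4 and 5.25 ± 4.52 in APEX2-GFP.

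To see whether the genes varied together, the 28 pairs were correlated over the 12 bait libraries on log2 normalized CPM. One pair passed, Dll1 with Atoh1 (Pearson r = 0.807, permutation p = 0.00066, adjusted p = 0.0185 over the 28 pairs; Spearman rho = 0.832, permutation p = 0.00146, adjusted p = 0.0409). Both genes were high in APEX2-GFP library 3 and low in APEX2-ACTB library 4. APEX2-ACTB library 1 was an exception, with 500 counts of Dll1 and 0 of Atoh1. Without APEX2-ACTB library 4 and APEX2-DPP4 library 4, the 2 farthest from the median of Dll1, r was 0.814. With the mean of each bait subtracted, r was 0.763 (permutation p = 0.0172 within baits, adjusted p = 0.389), so that the relation kept its size but not its call.

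The pairs next in size involved Notch2, with r = -0.713 against Atoh1 (permutation p = 0.00803, adjusted p = 0.112; rho = -0.629, p = 0.0326, adjusted p = 0.204) and r = 0.696 against Dll4 (permutation p = 0.0183, adjusted p = 0.171; rho = 0.699, p = 0.0141, adjusted p = 0.197). Without APEX2-GFP libraries 3 and 2 these were -0.467 and 0.193, and the second relation therefore rested on those libraries. Hes1 and Atoh1, the repressor and its target, had r = 0.132 (permutation p = 0.695, adjusted p = 0.927; rho = 0.238, p = 0.458, adjusted p = 0.892). Without APEX2-DPP4 libraries 3 and 1 r was 0.303, and with bait means subtracted 0.167. Atoh1 and Neurog3 had r = 0.287 (permutation p = 0.362, adjusted p = 0.634; rho = 0.109, p = 0.741, adjusted p = 0.944), r = 0.118 without APEX2-ACTB libraries 1 and 4, and 0.19 with bait means subtracted.

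Since the markers of mature cells differed so widely between libraries, each gene was also correlated with the summed level of 6 marker lists, 48 relations in all, chosen after the counts were seen. Dll1 followed the 13 enterocyte markers (r = 0.866, rho = 0.958, permutation p = 1e-05 for each, the smallest that the resamples can give, adjusted p = 0.00048 for each). With bait means subtracted r was 0.864 (permutation p = 0.00048, adjusted p = 0.023), and without APEX2-ACTB library 4 and APEX2-DPP4 library 4 it was 0.932. The 4 libraries with the lowest Dll1, which are APEX2-DPP4 library 4, APEX2-ACTB libraries 3 and 4 and APEX2-GFP library 1, were also the 4 with the lowest enterocyte sum, at 296, 414, 157 and 265 normalized CPM. Atoh1 had r = 0.781 with the same markers (permutation p = 0.0035, adjusted p = 0.056; rho = 0.741, p = 0.0076, adjusted p = 0.0603; r = 0.823 with bait means subtracted and 0.827 without APEX2-ACTB libraries 1 and 4).

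Dll1 also had r = 0.739 with the 7 goblet markers (permutation p = 0.00224, adjusted p = 0.0538; rho = 0.811, p = 0.00214, adjusted p = 0.0342), r = 0.679 with bait means subtracted and 0.77 without APEX2-ACTB library 4 and APEX2-DPP4 library 4. Atoh1 had r = 0.761 with them (permutation p = 0.0047, adjusted p = 0.0564; rho = 0.685, p = 0.0166, adjusted p = 0.0996), r = 0.719 with bait means subtracted and 0.753 without APEX2-ACTB libraries 1 and 4. Neurog3 had r = 0.53 with the 12 enteroendocrine markers (permutation p = 0.0753, adjusted p = 0.241; rho = 0.464, p = 0.132, adjusted p = 0.356), r = 0.603 with bait means subtracted and 0.289 without APEX2-GFP library 2 and APEX2-DPP4 library 2, so that it rested on those libraries. By Pearson r, Dll1 with the enterocyte markers was the 1 relation of 48 with an adjusted p under 0.05. By Spearman rho 5 were, namely Dll1 with the enterocyte, goblet, enteroendocrine (rho = 0.846, permutation adjusted p = 0.0202) and stem cell markers (rho = -0.783, permutation adjusted p = 0.0425), and Atoh1 with the enteroendocrine markers (rho = 0.769, permutation adjusted p = 0.0478). The part of the marker levels in the relation of Dll1 with Atoh1 was not tested.

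**Figure D4:**
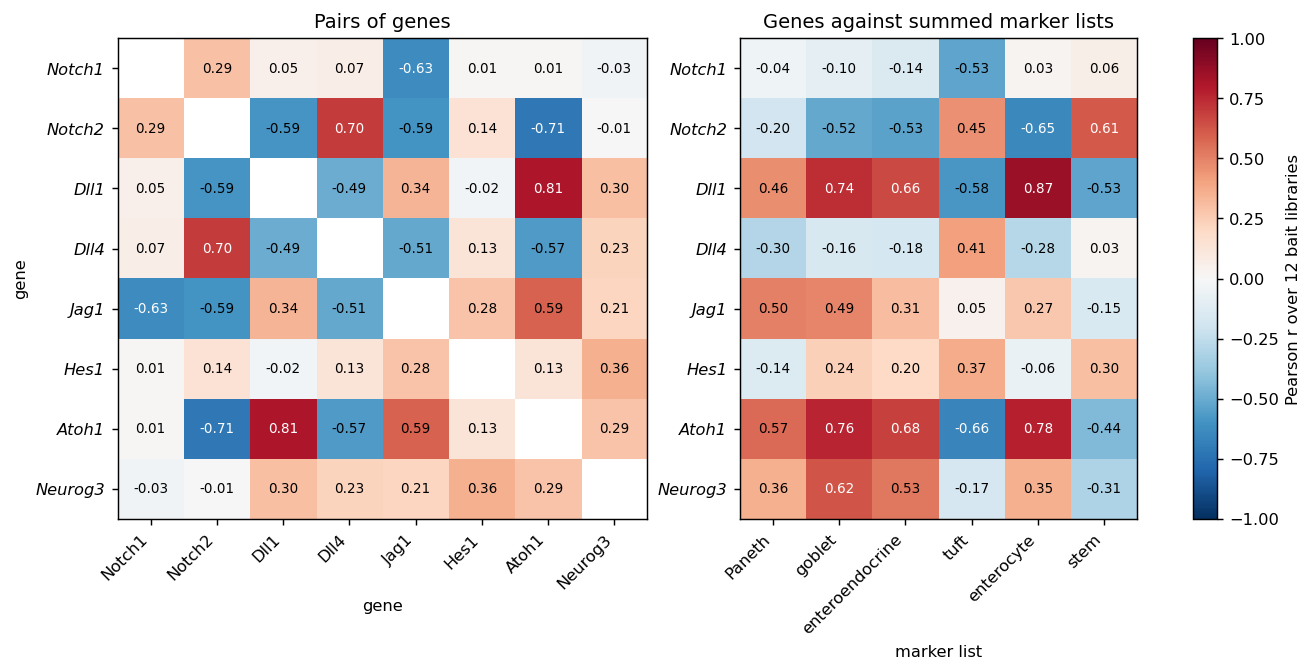
Pearson r over the 12 bait libraries for each pair of genes (left) and for each gene against the summed level of 6 marker lists (right), with red above 0 and blue below 0. Dll1 with Atoh1 (0.81) and Dll1 with the enterocyte markers (0.87) are the strongest values of each panel.

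**Figure D5:**
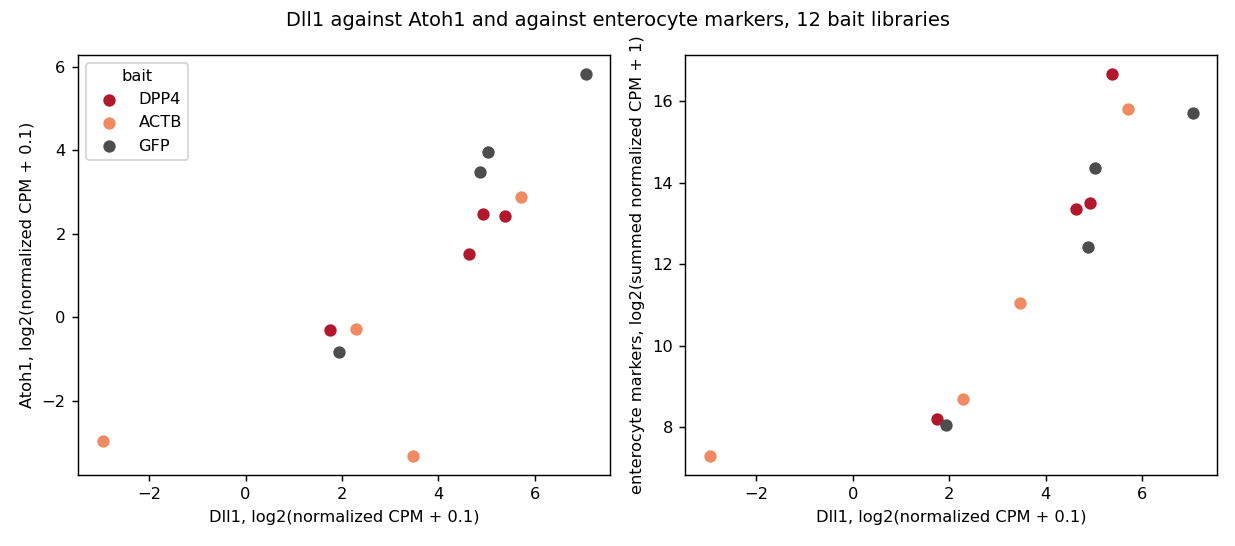
Dll1 (horizontal axis, log2(normalized CPM + 0.1)) against Atoh1 on the same scale (left) and against the summed enterocyte markers as log2(summed normalized CPM + 1) (right), with 1 point per bait library coloured by bait. Libraries of all 3 baits lie at both ends of each plot, and 1 APEX2-ACTB library with 500 Dll1 counts has 0 Atoh1 counts.

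For each of the 8 genes, the pair of genes most like it over the 12 bait libraries was looked up among genes with a mean of at least 10 normalized CPM. Dll1 was closest to Pstpip2 (r = 0.973), an F-BAR adaptor of the cytoskeleton, and Muc13 (r = 0.972), a membrane mucin of gut epithelium. Atoh1 was closest to Rasa4 (r = 0.945), a Ras GTPase-activating protein, and Dqx1 (r = 0.944). Notch2 was closest to Pkp1 (r = 0.970), a desmosome protein, and Mybbp1a (r = 0.965), a nucleolar protein, and Notch1 to Erf (r = 0.959), an ETS-family repressor, and Abt1 (r = 0.931). Dll4 was closest to Endov (r = 0.919), an endonuclease, and Manba (r = 0.902), a lysosomal mannosidase. Hes1 was closest to Pias4 (r = 0.903), a SUMO ligase, and Tbc1d9 (r = 0.893), and Jag1 to Actr2 (r = 0.897), a subunit of the Arp2/3 complex, and Pogz (r = 0.876). Neurog3 was closest to Fadd (r = 0.844), a death receptor adaptor, and Ufl1 (r = 0.833). These are the best of 9726 or 9727 candidates and describe these 12 libraries, which share depth and marker differences.

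MITO-1 and MITO-1c are 1 library each, so that their difference has no replicate check, and the intervals cover counting error only. Notch1 had 34 counts in MITO-1 and 422 in MITO-1c, a log2 ratio of CPM of -3.58 (95% counting interval -4.08 to -3.08). Atoh1 had 41 counts in MITO-1 and 400 in MITO-1c (log2 ratio -3.24, interval -3.70 to -2.77), and Neurog3 1 in MITO-1 and 16 in MITO-1c (log2 ratio -3.42, interval -5.84 to -1.01). Dll1 went the other way, with 549 counts in MITO-1 and 223 in MITO-1c (log2 ratio 1.33, interval 1.11 to 1.56). Dll4, Jag1 and Hes1 had log2 ratios of -1.0, -0.89 and -0.92, and Notch2 was nearest to 0 at -0.24 (interval -0.39 to -0.09). For Dll1 and Atoh1, the pair that varied together across baits, the ratios thus had opposite signs.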

How the data were processed

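The deposited table holds raw counts of the 14 libraries, and 0 of its columns belong to other samples. Per the study's methods, the authors prepared Nextera XT libraries, ran FastQC 0.11.9 and cutadapt 4.0 on the reads, mapped them to GRCm38 (STAR 2.7.9a) and obtained the counts from HTSeq 1.99.2 with default options, which drop reads that map to several places or to overlapping genes. The study later removed poor libraries, corrected for preparation dates with ComBat-seq and scaled by TMM. The table was used as deposited, as whole-number counts. Whether the libraries here were all kept by the study, and their preparation dates, are not given in the sources used here, so preparation date and bait cannot be told apart. IDs were matched to GENCODE gene names and positions on GRCm38 for 54349 genes by versioned ID and 792 without version, and 260 stayed unnamed. For each comparison, the 8 libraries of both baits and genes with a summed count of at least 5 entered edgeR 4.0.16 (R 4.3.3) quasi-likelihood tests after TMM scaling, with Benjamini-Hochberg adjustment over all genes tested; calls needed an adjusted p below 0.05 with an absolute log2 fold change above 1. The fit was run on simulated counts with known changes, and was required to recover them at a low spread only. Recovery at the spread of these libraries is not given here, so the lack of calls does not show that no gene differs. Levels are CPM scaled by TMM over the 14 libraries, and correlations used their log2 values (prior count 2) with 100000 two-sided permutations (numpy 2.4.6). MITO ratios used CPM of library totals with 0.5 added to each count. No 2 libraries of a bait agreed within sampling noise. The 8 genes, the further lists and the marker lists were chosen with earlier results of these data known. The near-absent targets Hes5, Hey1 and Hey2, with Hes6, Jag2, Olfm4 and Neurod1, were named after their values were seen. Otherwise named from the lists are the genes with the smallest unadjusted p in a comparison, at most 2 for each list. A gene that this rule also names is not reported here. Alternatives were RLE scaling, DESeq2 1.42.0, exactTest, no filter, filterByExpr, a fit over 12 libraries, a replicate block, each library left out, and shallow libraries left out.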

Additional observations from a re-analysis of the deposited data

Results flagged for a closer look

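Of the 24 sets of 4 libraries, 1 for each gene and bait, 3 held a library whose gap to its nearest neighbour exceeded Dixon's 95% critical value for 4 libraries, where chance gives about 1 set in 20. In APEX2-DPP4 library 3, Dll4 reached 21.1 normalized CPM, against 7.60 to 8.32 in its other libraries (gap 0.946 of the range). Atoh1 was at 7.32 in APEX2-ACTB library 2, against 0 to 0.724 in the others (0.901). Neurog3 was at 13.4 in APEX2-GFP library 2, and the other libraries of that bait were at 0, so that the gap is the whole range whatever the value.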

How the results depend on the processing

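Of 382 alternative values for the 24 fold changes of the 8 genes, 356 kept their direction and their side of the threshold, 25 in 8 results reversed and 1 passed it (Neurog3, given in the report). Calls over all genes were 48, 141 and 73 with DESeq2 in APEX2-DPP4 against APEX2-GFP, APEX2-DPP4 against APEX2-ACTB and APEX2-ACTB against APEX2-GFP. Without a filter they were 6 in the first and 60 in the second, and exactTest gave 1 in the second. Leaving out 1 library gave 0 calls in the first, 0 to 56 in the second and 0 to 10 in the third. The causes were not tested.

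Reversed values lay mostly near 0. In APEX2-DPP4 against APEX2-GFP, Hes1 ranged between -0.83 and 0.37 with 1 library left out (-0.83 without APEX2-DPP4 library 3, -0.05 without APEX2-GFP library 1 or 4), Neurog3 between -0.24 and 9.69 (-0.24 and -0.10 without APEX2-DPP4 library 2 or 3, -0.07, -0.06 and -0.07 without APEX2-GFP library 1, 3 or 4, 9.69 without APEX2-GFP library 2) and Dll1 between -1.45 and 0.15 (0.15 without APEX2-GFP library 3). In APEX2-DPP4 against APEX2-ACTB, Notch2 ranged between -0.96 and 0.21 (0.21 without APEX2-DPP4 library 1, 0.08 without APEX2-ACTB library 4) and Hes1 between -0.79 and 0.52 (-0.79 without APEX2-DPP4 library 3). In APEX2-ACTB against APEX2-GFP, Notch1 ranged between -0.36 and 0.43 (-0.36 without APEX2-GFP library 2, -0.26 without APEX2-ACTB library 3), Hes1 between -0.18 and 0.16 (0.16 without APEX2-GFP library 2) and Neurog3 between -6.88 and 3.48. There Notch1 was also -0.0178 with RLE, -0.0177 with DESeq2 and -0.0016 without a filter.

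Libraries with the same replicate number mostly did not deviate together (correlations of -0.633 to 0.499 over 7336 genes). The highest value was that of APEX2-DPP4 library 4 with APEX2-ACTB library 4, its best partner among the APEX2-ACTB libraries. APEX2-DPP4 library 4 deviated more closely with APEX2-GFP library 1 (0.732). The numbers thus show no general pairing, and a pairing of some libraries was not tested. With a replicate block, 0, 166 and 0 genes were called in the 3 comparisons, and the block turned Hes1 to -0.33 in APEX2-DPP4 against APEX2-GFP and -0.24 in APEX2-DPP4 against APEX2-ACTB, and Neurog3 to 1.03 in APEX2-ACTB against APEX2-GFP.

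The 1 correlated pair was called with Spearman's rho and with CPM of library totals. With bait means subtracted, a prior count of 0.5 or without the shallow libraries 0 pairs were called, and r of Dll1 with Atoh1 was 0.763, 0.758 and 0.8. TMM scaling, chosen after seeing the data, moved MITO log2 ratios by 0.19 and turned none. Depth limits Neurog3 and Atoh1, since 3 counts make 0.0822 to 0.318 CPM.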
